A study of Bos taurus with 15 samples.

Results

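Thymocytes enter, cross and leave the thymus along chemokine and lipid gradients. CCL25 from thymic epithelium acts on CCR9 of immature cells, CXCL12 acts on CXCR4 in the cortex, and CCL19 and CCL21 draw CCR7-bearing cells after positive selection into the medulla. The transcription factor KLF2 then switches on S1PR1, the receptor through which mature thymocytes follow sphingosine 1-phosphate out into the blood. These 9 genes were followed in whole thymus of 15 Holstein cows. They were chosen by name: probes listed under 1 of the symbols, or with that symbol in their description, were found for 8 of the 9 genes, of 14732 gene symbols on the array. S1PR1, listed in the files under its older name EDG1, was matched by its accession through the RefSeq gene table, which brought the total to 11 probes of 9 genes. The probe of CXCL12 is listed as an expressed sequence tag and was named from its description.

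The 8 treated cows had received prednisolone, a synthetic glucocorticoid, orally at 30 mg per head per day over 35 days. The 7 control cows are labelled as untreated. All were Holstein animals sampled at slaughter, and their age is not given in the sources used here. Each animal's RNA went on an array of its own with a single dye, which makes the animal the replicate, and precision is limited by the number of arrays.

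Each value below is the log2 of the spot signal after background subtraction, minus the 75th percentile of its own array; 0 is that percentile. Groups were compared with limma over 16068 probes, with a Benjamini-Hochberg adjusted p under 0.05 as the threshold. Differences are prednisolone minus control, with their standard error (SE). The share of bovine spots well above background was 67.1% to 77.7% per array. Of the genes of immature thymocytes, 11 of 11 with a probe were measured, that is well above background on 7 or more arrays (among them DNTT, PTCRA and CD8B). For thymic epithelium it was 13 of 13, among them PRSS16 and PSMB11. Such counts do not set thymus apart from other tissue. Of all 21475 bovine probes 16068 were tested, and the lists of fibroblasts (12 of 12) and macrophages (10 of 10) were complete too, while mature T cell genes reached 6 of 10. The control means of DNTT and PRSS16 were 6.58 and 6.30. The groups were spread unevenly over 4 slides. On slide 1 were controls 1, 2 and 5 with prednisolone animal 6, on slide 2 control 3 with prednisolone animals 3, 5 and 8, and on slide 3 controls 4, 6 and 7 with prednisolone animal 1. Prednisolone animals 2, 4 and 7 were alone on slide 4 and lay apart from all other arrays on the first principal component.

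None of the 9 genes passed the test between treated and control cows. Of the 11 probes, 10 were well above background on 15 of 15 arrays and were tested, and no member spot was saturated. The remaining probe, A_73_104671 of CXCR4, was above background on 2 of 15 arrays and was not kept. Of the 10 tested probes, 7 were higher and 3 lower with prednisolone, and 0 passed, where 0% of all probes passed. At an unadjusted p under 0.05 there were also 0, against 7.08% of all probes. Control and prednisolone values overlapped for 10 of 10 probes; the groups did not overlap for 0.112% of all probes. The median log2 difference was 0.028 over the 10 probes and -0.0004 over all probes. The SD over the 15 arrays was above the median of all probes for 7 of the 10: the median SD over the 15 arrays was 0.37 for the 10 probes and 0.26 for all probes. As this is RNA of whole tissue, fewer cells of a type and less RNA per cell cannot be told apart.

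**Figure D1:**
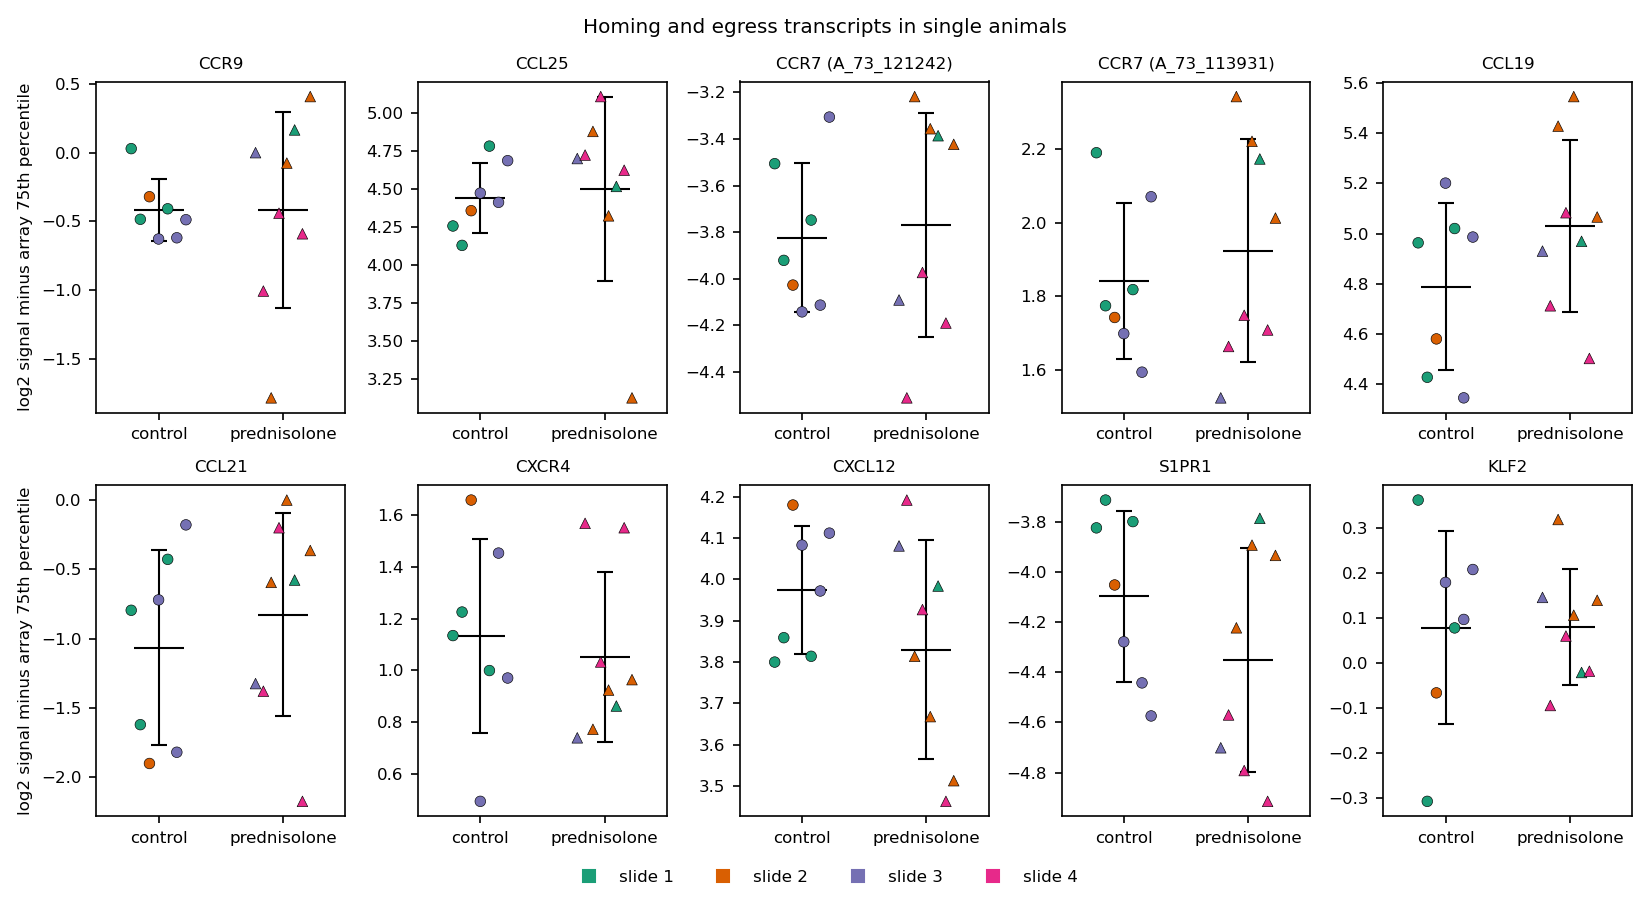
Each point is 1 animal, with control animals as circles and prednisolone animals as triangles, coloured by slide; the vertical axis is the log2 signal minus the array's 75th percentile, and lines give the mean and SD of 7 control and 8 prednisolone animals. The groups overlap in 10 of 10 panels, CCL25 of prednisolone animal 8 lies at 3.12 below all others, and S1PR1 sorts by slide.

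CCR9 is the receptor that early progenitors and cortical thymocytes use to answer CCL25. Its values ran from -0.63 (control 4) over a median of -0.48 to 0.03 (control 1) in controls, and from -1.78 (prednisolone animal 3) over -0.26 to 0.41 (prednisolone animal 8) in treated cows. The treated cows thus spanned the whole control range and went past it on both sides, with 2 animals above every control and 2 below. The means were almost the same, and the difference was 0.0016 ± 0.26 (limma adjusted p = 0.999), with a 95% interval from -0.56 to 0.56. Within slides 1, 2 and 3 it was 0.45, -0.16 and 0.58. A fit that blocked on slide gave 0.29 ± 0.34 (limma adjusted p = 0.840).

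The low value of prednisolone animal 3 came from 1 of its 2 spots. The spots read -2.81 and -0.76 there, a gap of 2.05, while the next largest gap between the CCR9 spots of an array was 0.45. Among the 238036 pairs of duplicate spots of tested probes, dim probes included, 1.33% had a gap at least as large, and the median gap was 0.11. The scanner software had not marked the dim spot as an outlier. Without that spot, a choice made after seeing the data, the CCR9 difference was 0.13 (limma adjusted p = 0.924), or 0.40 when blocked on slide (0.567).

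CCL25, the epithelial chemokine that binds CCR9, ran from 4.13 over 4.41 to 4.78 in controls and from 3.12 (prednisolone animal 8) over 4.66 to 5.11 (prednisolone animal 4) with prednisolone. Of the 8 treated cows, 6 lay above the control median, and 1 lay far below every other animal. That animal's duplicate spots agreed, with no CCL25 pair further apart than 0.21 on any array. The difference was 0.06 ± 0.23 (limma adjusted p = 0.977), and 0.13, -0.25 and 0.18 within slides 1, 2 and 3. Without prednisolone animal 8 it was 0.25, and without the arrays of slide 4 it turned to -0.13; neither passed.

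Prednisolone animal 8, with the lowest CCL25, had the highest CCR9. Over the 15 animals the ligand and its receptor had Pearson r = -0.562 (permutation p = 0.0489, 0.116 after Benjamini-Hochberg adjustment over the 19 relations computed) and Spearman rho = -0.461 (permutation p = 0.0849, adjusted 0.202). Without prednisolone animals 3 and 8, the 2 arrays farthest from the CCR9 median, r was -0.238 (permutation p = 0.437). It was -0.400 (permutation p = 0.156) without animal 8 alone and -0.571 (permutation p = 0.0318) without animal 3 alone, so that the relation rested on animal 8. With the dim CCR9 spot left out, r was -0.602 (permutation p = 0.0159, adjusted 0.0432), but -0.317 (permutation p = 0.270) without prednisolone animal 8. With slide means removed r was -0.588 (p = 0.283 over permutations within slides), and over slides 1 to 3 it was -0.576 (permutation p = 0.0842). CCR9 showed no relation to the mean of the immature thymocyte genes that passed (r = 0.220, permutation p = 0.444; rho = 0.182, permutation p = 0.517; r = 0.0965 without the 2 arrays farthest from the CCR9 median, 0.249 with slide means removed and 0.308 over slides 1 to 3).

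**Figure D2:**
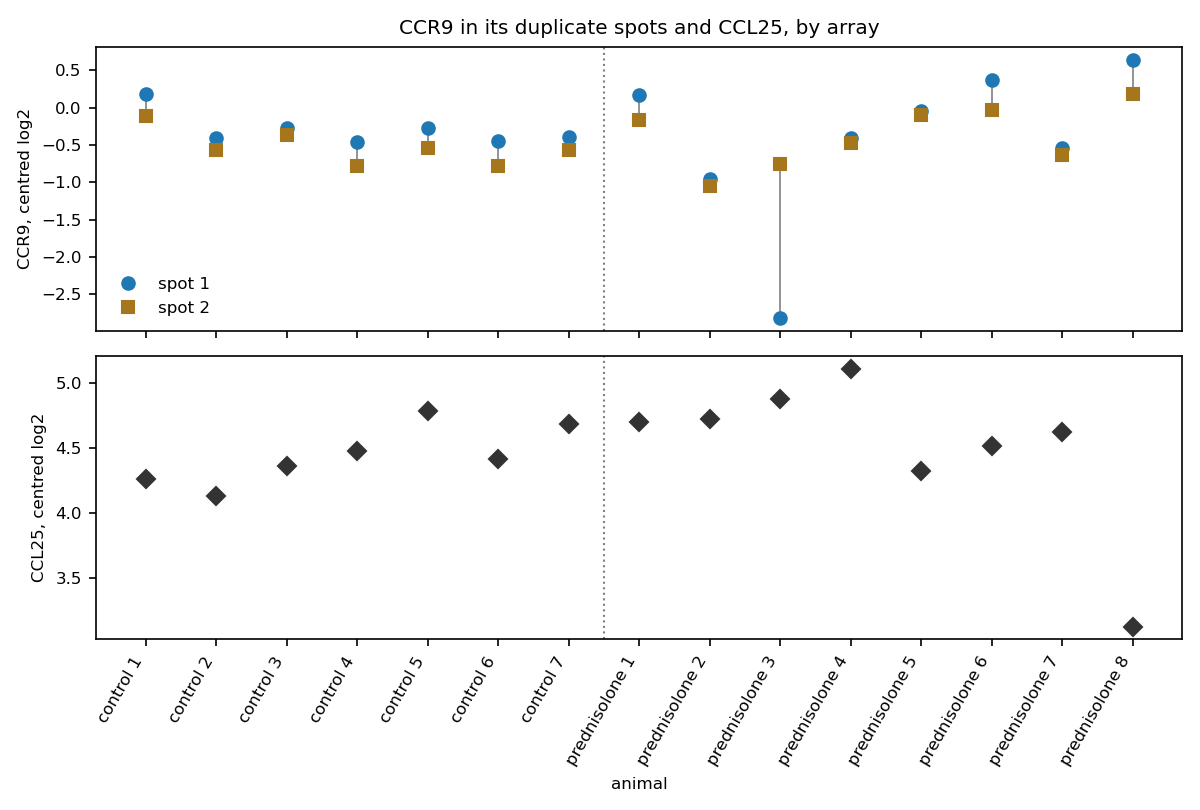
The upper panel gives CCR9 in its 2 spots on each array and the lower panel CCL25, both as centred log2 signal, with the 7 control animals left of the dotted line and the 8 prednisolone animals right of it. The spots of prednisolone animal 3 lie 2.05 apart, and prednisolone animal 8 combines the highest CCR9 with a CCL25 of 3.12.

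CCR7 is the receptor that brings positively selected thymocytes into the medulla, and dendritic cells and B cells carry it too. At probe A_73_113931 it ran from 1.59 over 1.77 to 2.19 in controls and from 1.52 (prednisolone animal 1) over 1.88 to 2.34 (prednisolone animal 3) in treated cows. The treated cows fell into both ends of the range, with 2 above every control and 1 below. The difference was 0.08 ± 0.13 (limma adjusted p = 0.930). It was 0.25, 0.45 and -0.26 within slides 1, 2 and 3. The value of slide 3, which went against the others, rests on prednisolone animal 1, the only treated cow there. Blocking on slide gave 0.14 ± 0.14. Probe A_73_121242 ran from -4.14 over -3.92 to -3.31 in controls and from -4.51 (prednisolone animal 2) over -3.70 to -3.22 (prednisolone animal 3) with prednisolone. Its groups overlapped as well, and its difference was 0.05 ± 0.20 (limma adjusted p = 0.973).

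The 2 CCR7 probes ranked the animals alike. Across the 15 arrays they had r = 0.910 (permutation p = 2e-05) and rho = 0.904 (permutation p = 1e-05, the smallest these permutations can give). The correlation was 0.879 without the 2 arrays farthest from the median, 0.898 with slide means removed and 0.945 over slides 1 to 3. Prednisolone animals 3 and 5 were at the top at A_73_113931, and prednisolone animal 1 and control 6 at the bottom. The probe A_73_113931, which had the higher mean signal, stands for CCR7 in the relations that follow.

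CCL19, one of the chemokines that bind CCR7, ran from 4.35 (control 6) over 4.96 to 5.20 (control 4) in controls, and from 4.50 (prednisolone animal 7) over 5.02 to 5.55 (prednisolone animal 5) in treated cows. Only prednisolone animals 3 and 5 rose above every control, and no treated cow fell below the lowest control. The difference of 0.24 ± 0.17 had the smallest p of the 10 probes (unadjusted p = 0.171 with limma, adjusted 0.803). The 3 slides with both groups gave 0.17, 0.77 and 0.09 in turn, and the fit blocked on slide 0.34 ± 0.21 (limma adjusted p = 0.650). The value of slide 2 sets control 3, the only control there, at 4.58, against prednisolone animals 3, 5 and 8 at 5.43, 5.55 and 5.07. Controls 2 and 6, on other slides, were lower than control 3.

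CCL21, the other CCR7 ligand, varied more between animals than 92.4% of all tested probes. It ran from -1.90 (control 3) over -0.80 to -0.18 (control 7) in controls, and from -2.17 (prednisolone animal 7) over -0.59 to -0.0008 (prednisolone animal 5) with prednisolone. Both groups held animals at either end, and neither slide nor treatment took up much of the spread: 7.80% of it lay between slides and 3.09% between treatments. The SD between duplicate spots was 0.22, against 0.70 between animals. The difference was 0.24 ± 0.35 (limma adjusted p = 0.921), with a 95% interval from -0.50 to 0.98. Within slides it was 0.37, 1.58 and -0.42, where the high value of slide 2 again rests on control 3, the lowest control.

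The 2 CCR7 ligands moved together from animal to animal. CCL19 and CCL21 had r = 0.851 (permutation p = 7e-05, adjusted 0.00133) and rho = 0.825 (permutation p = 0.00023, adjusted 0.00386) over the 15 animals. Without the 2 arrays farthest from the CCL19 median r was 0.805 (permutation p = 0.00095), and over slides 1 to 3 it was 0.840 (permutation p = 0.00071). With slide means removed it was 0.870 (p = 0.00079 over permutations within slides, adjusted 0.0150), the only 1 of the 19 relations that passed in that calculation. Leaving out single animals gave r from 0.828 to 0.879. Prednisolone animal 5 stood highest in both, and controls 2, 3 and 6 and prednisolone animal 7 were low in both. The genes are neighbours in the RefSeq annotation, with CCL21 next after CCL19, and hybridisation of 1 transcript to the probe of the other was not tested.

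CCR7 itself rose and fell with its ligands, with lower r than between the ligands. Its r was 0.639 with CCL19 (permutation p = 0.0104, adjusted 0.0492; rho = 0.571, permutation p = 0.0289, adjusted 0.0784) and 0.621 with CCL21 (permutation p = 0.0155, adjusted 0.0492; rho = 0.600, permutation p = 0.0208, adjusted 0.0659). Without prednisolone animals 3 and 5, the 2 arrays farthest from the CCR7 median, r was 0.400 with CCL19 (permutation p = 0.174) and 0.570 with CCL21 (permutation p = 0.0448). With slide means removed both were near their first values, 0.623 and 0.625, and neither passed the adjustment (0.222 and 0.108). Over slides 1 to 3 they were 0.637 and 0.686 (adjusted 0.105 and 0.0817), and with median centring 0.564 and 0.548 (both adjusted 0.109).

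B cells, dendritic cells and mature T cells carry CCR7, and their genes were set against it in turn, with no test between the correlations. The mean of 8 measured B cell genes, among them MS4A1, CD79A and PAX5, had r = 0.789 with CCR7 (permutation p = 0.00022, adjusted 0.00209) and rho = 0.811 (permutation p = 0.00048, adjusted 0.00386). It was 0.694 without the 2 arrays farthest from the CCR7 median (adjusted 0.0378), 0.791 over slides 1 to 3 (adjusted 0.00887), and 0.738 with slide means removed (p = 0.0140 over permutations within slides, adjusted 0.108). With quantile normalization r was 0.686 (permutation adjusted 0.0239) and rho 0.479 (adjusted 0.200). The B cell mean was highest in prednisolone animals 5, 3 and 6, at -0.56, -0.81 and -0.86, and ran from -1.44 over -1.25 to -1.07 in controls and from -1.30 over -1.18 to -0.56 in treated cows. Those 3 animals also had the 3 highest CCR7 values of the treated group. The part of the B cells in the CCR7 values was not tested. Dendritic cell genes had r = 0.599 with CCR7 (permutation p = 0.0193, adjusted 0.0523; rho = 0.707, adjusted 0.0168; r = 0.457 without the 2 farthest arrays, 0.429 with slide means removed, 0.583 over slides 1 to 3), which passed with the authors' values (0.645, adjusted 0.0257). Mature T cell genes had r = 0.625 (permutation p = 0.0131, adjusted 0.0492; rho = 0.721, adjusted 0.0149), and 0.703 without the 2 farthest arrays (adjusted 0.0378). It did not pass over slides 1 to 3 (0.606, adjusted 0.128), with slide means removed (0.357, p = 0.290 over permutations within slides), with quantile normalization (0.565), the authors' values (0.561) or median centring (0.408).

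CCL19 and CCL21 did not go with the lymph node stroma genes. With the mean of 5 such genes, among them CXCL13 and PDPN, r was -0.0240 for CCL19 (permutation p = 0.931; rho = -0.0464, permutation p = 0.872) and -0.0861 for CCL21 (permutation p = 0.759; rho = -0.0857, permutation p = 0.762). Without the 2 farthest arrays the values were -0.343 and 0.255, with slide means removed -0.288 and -0.289, and over slides 1 to 3 -0.0025 and 0.0148. CR2, which marks follicles of lymph nodes, was on the array but not above background on enough arrays to be kept.

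**Figure D3:**
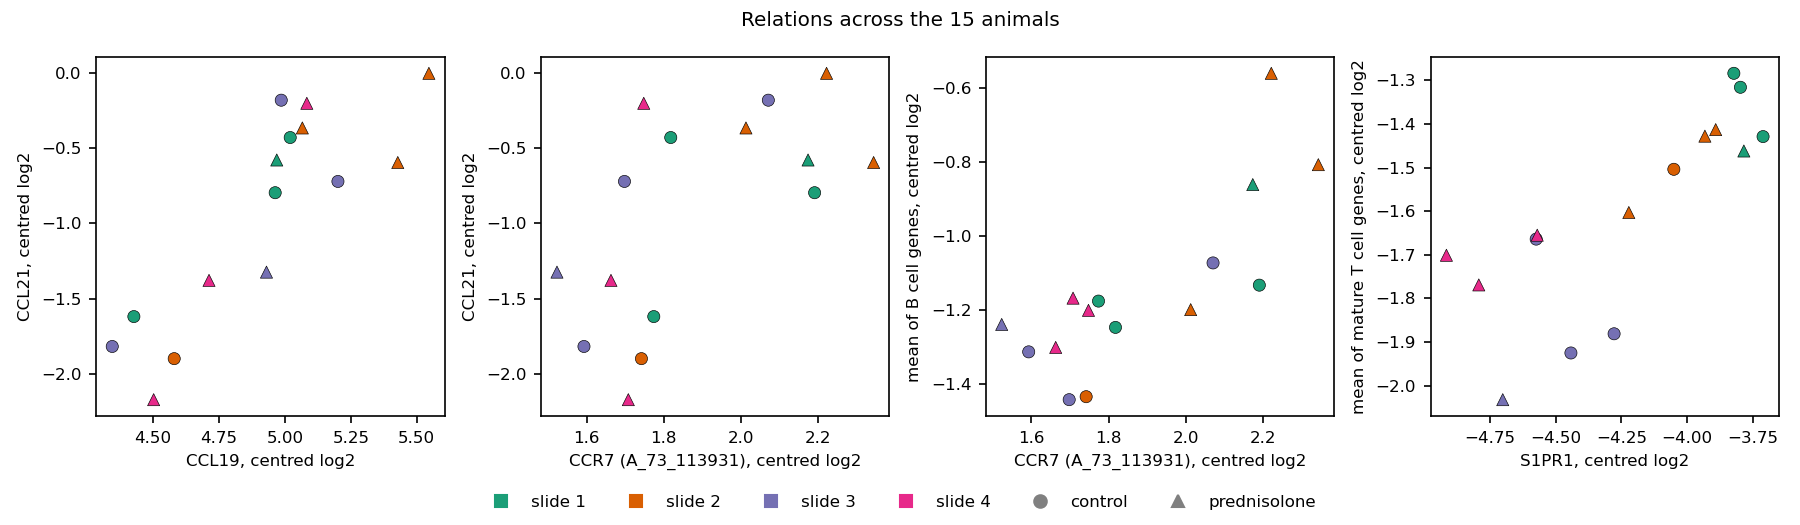
Each point is 1 animal, with circles for control and triangles for prednisolone, coloured by slide; axes are centred log2 signal of a gene or the mean over a list of genes. From left to right, r over the 15 animals is 0.851 for CCL19 with CCL21, 0.621 for CCR7 with CCL21, 0.789 for CCR7 with the B cell genes and 0.789 for S1PR1 with the mature T cell genes, where the points also order by slide.

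CXCR4 holds progenitors and double-positive cells in the cortex. At probe A_73_100200 it ran from 0.49 (control 4) over 1.13 to 1.66 (control 3) in controls and from 0.74 (prednisolone animal 1) over 0.94 to 1.57 (prednisolone animal 2) with prednisolone. All treated values lay inside the control range, and the 2 that were above the control median were both from slide 4. The difference was -0.08 ± 0.17 (limma adjusted p = 0.950). Within slides 1, 2 and 3 it was -0.26, -0.77 and -0.23, lower with prednisolone on each. In the fit blocked on slide it was -0.42 ± 0.18, and it did not pass (limma adjusted p = 0.486). Its unadjusted limma p of 0.0362 was the smallest of the member probes in that fit, and CXCR4 was the 1 member probe under 0.05, against 9.57% of all probes. The value of slide 1 rests on prednisolone animal 6, its only treated cow, and that of slide 3 likewise on prednisolone animal 1. The value of slide 2 rests on control 3, the highest of all 15.

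Slide 4 holds no control, so in the blocked fit its CXCR4 values add to the error but do not shape the treatment difference. Its 3 animals ran from 1.03 to 1.57 and the other 5 treated cows from 0.74 to 0.96, without overlap, higher on slide 4. Of all probes 9.28% were higher on slide 4 without overlap and 16.2% lower. The difference between these treated animals was 0.53 ± 0.14 (limma adjusted p = 0.0375). The call was lost under quantile normalization (0.48, limma adjusted p = 0.0617), normexp background correction (0.42, 0.0591) and with the authors' values (0.50, 0.0622). With the runs that leave out single animals also counted, the call was lost in 10 alternatives and kept in 3. For these 3 animals slide and animal cannot be told apart.

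CXCL12, the ligand of CXCR4, made by stromal cells of the cortex and corticomedullary junction, was among the steadiest of the 9 genes. It ran from 3.80 over 3.97 to 4.18 in controls and from 3.46 (prednisolone animal 7) over 3.87 to 4.19 (prednisolone animal 2) in treated cows. Prednisolone animals 5, 7 and 8 lay below every control, and 1 lay above. The difference was -0.14 ± 0.11 (limma adjusted p = 0.831), with a 95% interval from -0.39 to 0.10, and 0.16, -0.52 and 0.03 within slides 1, 2 and 3. The SD between duplicate spots was 0.05, the smallest of the 10 probes. CXCR4 and CXCL12 had r = 0.0168 (permutation p = 0.953; rho = 0.0714, permutation p = 0.801), which was -0.464 without the 2 arrays farthest from the CXCR4 median (permutation p = 0.111), 0.191 with slide means removed and 0.126 over slides 1 to 3. CXCL12 with the fibroblast genes had r = 0.0993 (permutation p = 0.723; rho = 0.139, permutation p = 0.622), 0.183 without the 2 farthest arrays, 0.331 with slide means removed and -0.150 over slides 1 to 3. CXCR4 had r = 0.158 with the immature thymocyte genes (permutation p = 0.569; rho = 0.225, permutation p = 0.419) and -0.321 with the B cell genes (permutation p = 0.248; rho = -0.293, permutation p = 0.294). The first was 0.208 without the 2 farthest arrays, -0.130 with slide means removed and 0.0309 over slides 1 to 3, and the second -0.107, -0.420 and -0.286. With median centring the first was 0.535 (permutation p = 0.0400, adjusted 0.109).

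KLF2, a transcription factor of quiescent and emigrating T cells, varied least of the 9 genes. It ran from -0.31 (control 2) over 0.10 to 0.36 (control 1) in controls and from -0.09 (prednisolone animal 2) over 0.08 to 0.32 (prednisolone animal 3) in treated cows. Every treated animal lay inside the control range. The difference was 0.0010 ± 0.094 (limma adjusted p = 0.999), with a 95% interval from -0.20 to 0.20, and -0.07, 0.25 and -0.02 within slides 1, 2 and 3.

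S1PR1, the exit receptor, ran from -4.57 (control 7) over -4.05 to -3.71 (control 2) in controls and from -4.92 (prednisolone animal 7) over -4.40 to -3.79 (prednisolone animal 6) in treated cows. Prednisolone animals 1, 4 and 7 lay below every control, and none lay above. The difference of -0.25 ± 0.20 (limma adjusted p = 0.826) was -0.08 ± 0.10 when blocked on slide. Within slides 1, 2 and 3 it was -0.01, 0.04 and -0.27. Nearly all of its spread lay between slides: 90.1%, more than for 96.8% of all tested probes, whose median share was 42.8%. The slide means were -3.78, -4.03, -4.50 and -4.76 for slides 1 to 4, and 10.3% of the spread lay between treatments. The other 9 probes had between 7.80% and 46.5% between slides.

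S1PR1 went with mature T cell genes across animals, and both went with the slides. With the mean of 6 measured genes (among them IL7R, CD40LG and CD28), r was 0.789 (permutation p = 0.0006, adjusted 0.0038) and rho 0.796 (permutation p = 0.00061, adjusted 0.00386). It was 0.850 without the 2 arrays farthest from the S1PR1 median and 0.884 over slides 1 to 3 (adjusted 0.0057). With slide means removed it was 0.313 (p = 0.395 over permutations within slides), and with median centring it was 0.478 (permutation adjusted 0.174). Since 90.1% of the S1PR1 spread lay between slides, little was left to relate among animals of the same slide. The SD of S1PR1 was 0.41 over the 15 arrays and 0.13 between its duplicate spots. The value with slide means removed therefore cannot decide whether the relation holds within slides. The means of the mature T cell genes were -1.37, -1.49, -1.88 and -1.71 on slides 1 to 4. S1PR1 with endothelial genes had r = 0.467 (permutation p = 0.0814; rho = 0.393, permutation p = 0.149; 0.425 without the 2 farthest arrays, 0.276 over slides 1 to 3), which was -0.301 with slide means removed.

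KLF2 and S1PR1, the factor and its target, showed no relation that passed. Over the 15 animals r was -0.0780 (permutation p = 0.784) and rho -0.129 (permutation p = 0.646). It was 0.0322 without the 2 arrays farthest from the KLF2 median, -0.326 with slide means removed and -0.379 over slides 1 to 3. With median centring it was -0.593 (permutation p = 0.0195, adjusted 0.0926). KLF2 with the mature T cell genes had r = -0.0718 (permutation p = 0.802; rho = -0.0214, permutation p = 0.944), -0.188 without the 2 farthest arrays, 0.214 with slide means removed and -0.139 over slides 1 to 3.

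**Figure D4:**
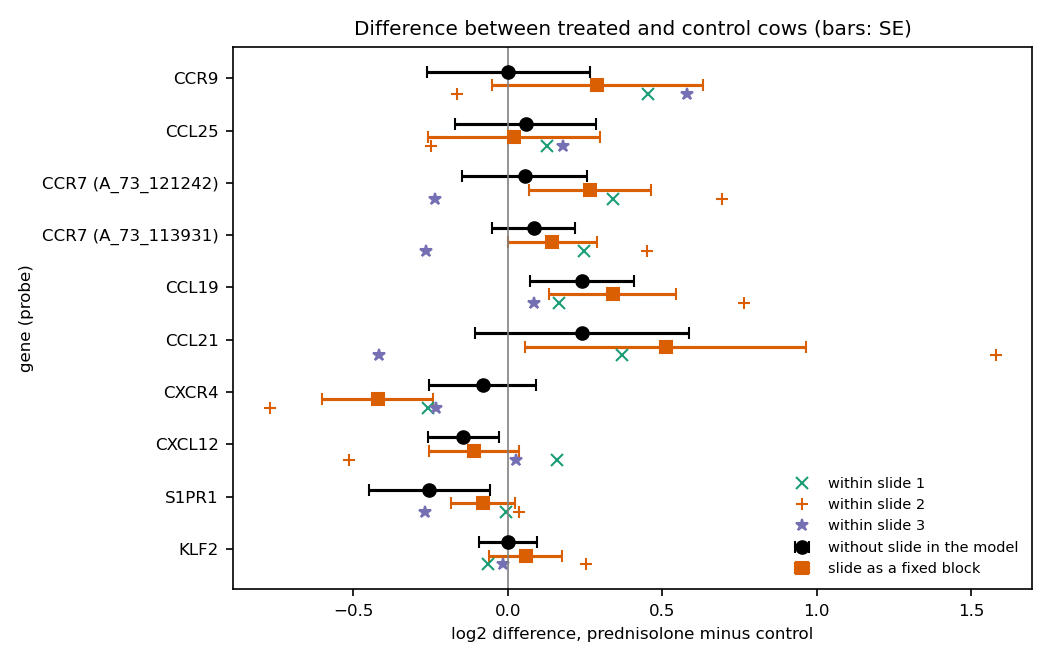
Log2 differences, prednisolone minus control, of the 10 tested probes, with black circles from limma without slide, orange squares with slide as a fixed block (bars are SE), and 3 other marks for the values within slides 1, 2 and 3. CXCR4 lies left of 0 in all 3 slides and at -0.42 in the blocked fit, and CCL19 lies right of 0 in all 3 slides. The widest spread of marks is that of CCL21, from -0.42 to 1.58.

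The treated animals also differed among themselves by slide. Between the 3 prednisolone animals of slide 4 and the other 5, 2 of 10 member probes passed (20%, against 15.8% of all probes): CXCR4, which was higher, and CCR7 at A_73_121242, which was lower by -0.73 ± 0.21 (limma adjusted p = 0.0484). Higher probes made up 3.42% and lower probes 12.4% of all those tested. S1PR1 was -0.65 ± 0.21 (limma adjusted p = 0.0690) and did not pass, nor did CCL21 (-0.68 ± 0.43), CCL25 (0.51 ± 0.37), CCL19 (-0.42 ± 0.19), CCR9 (-0.42 ± 0.45), CCR7 at A_73_113931 (-0.35 ± 0.18), KLF2 (-0.16 ± 0.11) or CXCL12 (0.05 ± 0.19). The CCR7 call at A_73_121242 was lost under quantile normalization (-0.42, limma adjusted p = 0.133), median centring (-0.50, 0.0771) and with the authors' values (-0.50, 0.0900). With the runs that leave out single animals also counted, that CCR7 call was lost in 10 alternatives and kept in 3. The median over all probes on slide 4 was shifted by -0.06, and by 0.16 with median centring.

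CCL25 and the thymic epithelium genes gave another relation that depended on the scaling. With the mean of the 13 measured epithelial genes CCL25 had r = 0.314 (permutation p = 0.260, adjusted 0.448; rho = 0.289, permutation p = 0.295). It was 0.192 without the 2 arrays farthest from the CCL25 median, 0.527 with slide means removed and 0.452 over slides 1 to 3. By r the relation passed with quantile normalization (r = 0.673, permutation adjusted 0.0325), median centring (0.806, adjusted 0.0029) and the authors' values (0.664, adjusted 0.0257). By rho it passed with median centring (0.775, permutation adjusted 0.0178), but not with quantile normalization (0.407, adjusted 0.274) or the authors' values (0.557, adjusted 0.0933). Leaving out single animals in the first calculation gave r from 0.113 (without prednisolone animal 8) to 0.436 (without prednisolone animal 5).

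The other genes of the homing and egress pathway did not pass either. Of 62 listed genes for chemokine and sphingosine 1-phosphate receptors, adhesion, signalling and gradient upkeep, 59 had a probe and 51 were measured. Of the 51, 25 were higher and 26 lower with prednisolone, 0 passed, and 2 had an unadjusted p under 0.05 (3.92%, against 7.08% of all probes). The median log2 difference was -0.0026, or 0.04 when blocked on slide. The 4 higher genes with the smallest p were GNA13, a G protein subunit downstream of migration-inhibiting receptors (0.47 ± 0.16, where another probe gave -0.21), the integrin ligand ICAM1 (0.18 ± 0.084), PLPP3, a phosphatase that breaks down lipid phosphates outside the cell (0.29 ± 0.14), and the endothelial selectin SELP (0.46 ± 0.25). The 4 lower genes were the receptor S1PR2, which restrains migration (-0.49 ± 0.20), the chemokine receptor CCR8 (-0.54 ± 0.27, and 0.06 with slide as a block), the chemokine CCL5 (-0.42 ± 0.22) and the factor KLF13, which drives CCL5 in T cells (-0.20 ± 0.12).

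Between slide 4 and the other treated animals, 6 of the 51 genes were lower on slide 4 and passed (11.8%, against 12.4% of all probes), and 0 were higher and passed (against 3.42% of all probes), shares near or below those of the whole array. The lower genes were CCR8 (-1.35, limma adjusted p = 0.000965), SELPLG, the P-selectin ligand (-1.53, 0.0385), CXCR3 (-1.06, 0.0136), S1PR2 (-0.80, 0.0248), CCL17 (-0.74, 0.00453) and CCL5 (-0.71, 0.0200). 3 of the 4 lower genes named for the treatment comparison are among those that were lower on slide 4. The slide 4 animals are part of the treated group in that comparison, so this overlap is partly built in.

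No marker gene of the 10 cell type lists passed between treated and control cows. The median log2 difference was 0.08 for immature thymocytes, -0.01 for mature T cells, -0.01 for thymic epithelium, -0.005 for endothelium and 0.16 for fibroblasts. It was -0.22 for lymph node stroma, 0.25 for B cells, -0.02 for dendritic cells, -0.23 for macrophages and 0.25 for adipocytes. The gene with the smallest p of the B cell list, whose mean went with CCR7, was BLNK (0.24 ± 0.10). The 2 with the smallest p of the mature T cell list, whose mean went with S1PR1, were IL7R (-0.29 ± 0.28) and CD28 (-0.24 ± 0.25). In the other lists they were CHRNA3 (0.28 ± 0.092, where another probe gave -0.76) and CD1B (0.15 ± 0.11), CLDN7 (-0.35 ± 0.15) and PRSS16 (-0.14 ± 0.076), FLT4 (-0.62 ± 0.22) and CLDN5 (-0.59 ± 0.25), and PDGFRB (0.36 ± 0.13) and PCOLCE (0.20 ± 0.085). The remaining lists were led by PDPN (0.32 ± 0.14) and TNFSF11 (-0.23 ± 0.14), CD80 (-1.27 ± 0.56) and CIITA (0.21 ± 0.16), HMOX1 (-0.43 ± 0.16) and SPIC (-0.59 ± 0.29), and PNPLA2 (0.32 ± 0.12) and GPD1 (0.24 ± 0.094). With slide as a block CD80 was -0.30, SPIC -0.13 and CLDN5 -0.26, while FLT4 was -0.68. Between slide 4 and the other treated animals CD80 was -2.86 (limma adjusted p = 0.000854), SPIC -1.12 (0.0544) and CLDN5 -1.14 (0.00702). CD80 was above background on 12 of 15 arrays, and FLT4 on 8 of 15.

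For each of the 9 genes the 3 genes with the most similar pattern were sought among 11697 genes, by Pearson r over 15 arrays after slide means were removed, as a description with no test. CXCR4 had the closest partners: INTS6 (0.978), TIPARP (0.975) and the T cell adaptor FYB1 (0.949). CCL21 was followed by the receptor TNFRSF1B (0.942), by CCL19 (0.870) and by SEMA6D (0.864), so that its fellow CCR7 ligand ranked number 2 of the 11697. CCL19 itself was closest to CIITA (0.917), the master regulator of MHC class II genes, ASAP3 (0.888) and the interferon-response factor IRF1 (0.884). CCR7 was closest to IRF8 (0.882), a factor of B cells and dendritic cells, BAALC (0.856) and SMAD7 (0.854).

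CCL25 was closest to SLC46A2 (0.907), a transporter of thymic stroma, then to LINGO1 (0.884) and ALYREF (0.852). Without the removal of slide means SLC46A2 still had r = 0.925 with CCL25. Both calculations contain the low CCL25 of prednisolone animal 8, at 3.12, and the partners were not sought without that animal. CCR9 was closest to GSK3B (0.923), TXLNG (0.903) and ST7 (0.900), which fell to 0.602, 0.663 and 0.614 when slide means were kept, and its pattern contains the dim spot of prednisolone animal 3. CXCL12 was closest to BDH2 (0.933), COPS3 (0.888) and TYMS (0.886), S1PR1 to KCNK10 (0.896), MORN2 (0.852) and RHOV (0.849), and KLF2 to SLC15A4 (0.899), PARP12 (0.890) and CITED4 (0.870). The partners of S1PR1 rest on the small part of its spread within slides, as 90.1% lay between slides. Its SD between duplicate spots was 0.13. With slide means kept, KCNK10, MORN2 and RHOV had r = 0.735, 0.447 and 0.729 with S1PR1.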

How the data were processed

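The 9 genes, the gene lists and the relations were chosen with earlier results of these data known. The scanner files hold spot intensity that the authors extracted with Feature Extraction (version 9.5.1.1, per the file headers); the processed signal is background-subtracted and detrended, without scaling between arrays. The other columns used are spot flags, per the file headers. A second deposited file, with 44396 rows, gives the authors' own intensity values, linear in scale and running the same way as the signal (rank correlation at least 0.99962 on each array), with column medians from 188.5 to 274.1. Whether its columns were centred is unknown, and the submitters' processing notes name R 2.11.1 only. Groups follow each animal's treatment label, since a protocol text shared by all 15 samples names the drug for controls too. Replicate numbers follow sample order.

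From the log2 processed signal the 75th percentile over the array's 42990 bovine spots was subtracted. Outlier spots were left out, and the spots of a probe were averaged. A probe was kept if well above background on 7 or more of the 15 arrays, and kept probes were tested with limma 3.58.1 in R 4.3.3 (statmod 1.5.0, version 1.17.8 of data.table), which was tested on simulated data. For lists and relations the brightest kept probe of a gene was used, member genes were left out of list means, and relations were tested in Python 3.11.15 with 100000 two-sided permutations (numpy 2.4.6, pandas 2.3.3). Named genes were all members, the 4 pathway genes of smallest p in each direction, 2 per cell type list and the 3 of most similar pattern per member. Of the genes so chosen, 1 is not reported here, and it stays in its list mean. Gene names and neighbours came from RefSeq (assembly ARS-UCD2.0). The files name no genome build, so positions are not given. All arrays were scanned on 1 day. Alternatives were quantile normalization, median centring, normexp (offset 50), the deposited values, looser and stricter filters, keeping outlier spots, blocking on slide or leaving out slide 4, trend and robust, array weights and leaving out each animal.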

Additional observations from a re-analysis of the deposited data

Results flagged for a closer look

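CCL25 of prednisolone animal 8, at 3.12, stood apart from the other 7 treated animals, of which the nearest was at 4.32. The gap took up 0.604 of the range of the 8 animals, above Dixon's 95% critical value of 0.526. It was the only such value in 20 groups of arrays checked (10 probes in 2 groups), and chance alone sets off about 1 in 20 groups.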

How the results depend on the processing

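No paired analysis was possible because treated and control cows are different animals and the labels match none of them. The replicate numbers used are those of sample order. No member probe passed between treated and control cows under any alternative, nor without any single animal. Over all probes 1 passed with quantile normalization and 0 to 3 without single animals. Between slide 4 and the other treated animals, 2539 probes passed, against 1669 when a probe had to be above background on all 15 arrays (added after seeing the data) and 1554 to 3279 without single animals. Of the member probes 2 passed there, against 0 with quantile normalization, 0 with the authors' values, 1 with normexp, 1 with median centring (added after seeing the data) and 0 to 3 without single animals. Of 19 relations 6 passed, against 1 with slide means removed, 3 without slide 4, 3 with median centring, 4 without the 2 farthest arrays, 5 with quantile normalization, 7 with the authors' values and 8 without the dim CCR9 spot (added after seeing the data).

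Some differences that did not pass changed sign, and the cause was not tested: CCR9 with the authors' values (-0.0041) and array weights (-0.094), CCL25 without slide 4 (-0.13), CCR7 at A_73_121242 with normexp (-0.50, where the median of all probes was -0.21), KLF2 with quantile normalization (-7.35e-05) and the authors' values (-0.0087), SELP with normexp (-0.49), and CCR8 with slide as a fixed block (0.058, and 0.052 and 0.042 with quantile normalization or median centring as well, both added after seeing the data). On slide 4 CXCL12 turned with quantile normalization (-0.052), normexp (-0.016) and the authors' values (-0.073), and KLF2 with median centring (0.072). Without single animals the treatment difference ran from -0.12 to 0.20 for CCR9, -0.029 to 0.25 for CCL25, -0.024 to 0.16 for CCR7 at A_73_121242, -0.19 to 0.0056 for CXCR4 and -0.063 to 0.048 for KLF2, and the slide 4 difference of CXCL12 from -0.12 to 0.25.

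Relations that did not pass turned as well: CXCR4 with CXCL12 (-0.464 without the 2 farthest arrays, -0.0279 with quantile normalization, -0.0333 with the authors' values), KLF2 with S1PR1 (0.0322 without the 2 farthest arrays), immature thymocyte genes with CCR9 (-0.110 with median centring) and with CXCR4 (-0.130 with slide means removed), KLF2 with mature T cell genes (0.214 with slide means removed), CCL21 with lymph node stroma (0.255 without the 2 farthest arrays, 0.0148 without slide 4), CXCL12 with fibroblast genes (-0.150 without slide 4) and S1PR1 with endothelial genes (-0.301 with slide means removed, -0.417 with quantile normalization, -0.249 with the authors' values, -0.120 with median centring). With 7 and 8 animals, the intervals of the member differences in the fit without slide still allow changes of up to 0.20 (KLF2) and 0.98 (CCL21). Blocked on slide, the SE was larger, at 0.12 against 0.094 for KLF2 and 0.46 against 0.35 for CCL21.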
